A study of Mus musculus with 6 samples.

Results

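Guanylate-binding proteins (GBPs) were followed in alveolar type II cells, the surfactant-producing cells of the lung, of mice with and without Stat3 in the lung epithelium. The members are 5 genes, Gbp2, Gbp3, Gbp6, Gbp7 and Gbp8, and they are read by every probe set that names one of them alone, which gives 8 of 45037 probe sets and 5 of 18193 genes. The 5 genes were picked with the difference between the 2 groups in view, so that difference is described below and carries no test. No filter on low signal was applied, and all 8 probe sets were measured on all 6 arrays. Stat3Δ/Δ mice carry the SP-C-rtTA and (tetO)7CMV-Cre transgenes on Stat3flx/flx alleles. In them, doxycycline switched on Cre before birth, through rtTA under the control of the SP-C promoter. Cre removed an exon of Stat3 from respiratory epithelial cells. By the methods the drug was in the food of the dams, and littermate controls came from the same dams. For the controls the sources differ: the source names give both transgenes without the floxed allele, the descriptions repeat the triple-transgenic line, and the methods give littermates that carry 1 of the transgenes with Stat3flx/flx. All mice were 8 weeks old, and both groups were sex and age matched. Each RNA came from the cells of 3 mice, lysed together 2 hours after isolation by collagenase and differential plating, and 3 Stat3Δ/Δ pools and 3 control pools were each hybridized to an Affymetrix MOE430 array. Macrophages are the main other cell in such isolates. By a modified Papanicolaou stain, the methods report no difference between the groups in purity or in type II cell number.

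GBPs are large GTPases of the dynamin superfamily that are made in many cell types after exposure to interferon-gamma, and to a lesser degree to type I interferons. They assemble on the vacuoles and membranes of intracellular bacteria and parasites, help to break them open, and thereby expose microbial products to the inflammasomes. Their genes carry elements that answer interferon, among them the gamma-activated site and the interferon-stimulated response element, which interferon regulatory factors bind. STAT3 is a transcription factor that is activated by cytokines of the interleukin-6 family and can dampen responses to interferon.

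Stat3 itself was read by 4 probe sets, of which 1426587_a_at and 1460700_at were lower on every Stat3Δ/Δ array than on every control array. Their signals were 20127.5 to 26285 against 35080.1 to 49489 and 7633 to 9931 against 13015 to 17858. The other 2 gave log2 differences of -0.05 and 0.60. The type II cell markers were bright in both groups, with Sftpc at 94430.5 to 129372 in Stat3Δ/Δ and 107379 to 125714 in control pools, as the labelled cell type would have it. As a measure of RNA integrity, Gapdh control probe sets at the 3' end were set against those at the 5' end. The log2 ratio was -0.50 to -0.29 in Stat3Δ/Δ pools and -0.24 to 0.26 in control pools, and that of Actb was 0.38 to 0.42 and 0.47 to 0.80. Neither pair of ranges overlapped, and the part of RNA integrity in the results was not tested. The sample titles begin with a number that Stat3Δ/Δ pools 1 and 2 share with control pool 3. Control pools 1 and 2 share another number, which no Stat3Δ/Δ pool has, and Stat3Δ/Δ pool 3 has a number of its own. Among these 3 arrays the group and the title number therefore cannot be told apart. The sources used here do not explain the number. Differences within the 3 arrays of the shared number and between the other 3 are given for the members, for many list medians and for some genes. The methods describe the pools of each group as independent, and p-values measure the spread between them.

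All 8 member probe sets were higher on average in Stat3Δ/Δ than in control cells. The log2 difference, which is the mean of the Stat3Δ/Δ pools less that of the control pools on the scale of log2(signal + 69.9) after quantile normalization, ran from 0.32 to 1.99 with a median of 0.72. Fewer cells of a type and less RNA per cell cannot be told apart in such bulk RNA. Over all probe sets the median was -0.017 and 48.3% lay above 0. For 4 of the 8 probe sets, in 3 of the 5 genes, every Stat3Δ/Δ array was higher than every control array, as was the case for 5.99% of all probe sets. Leaving out control pool 2 made this count 6, and leaving out Stat3Δ/Δ pool 1 or pool 3 made it 5. Dropping a pool can only keep or raise such a count, for any probe sets. The share of all probe sets with a pool left out is not given here. With an unadjusted p up to 0.05 and a change of 1.5-fold or more, 4 member probe sets and 4.14% of all probe sets were higher. No member probe set passed these thresholds with a false discovery rate (FDR) of at most 10% in limma, which 0.00222% of all probe sets did (1 of them), and none did so in the methods' t-test either, while 4 had an unadjusted p up to 0.05 in each of these tests. Since the members were picked from this contrast, nothing is read from these counts.

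**Figure D1:**
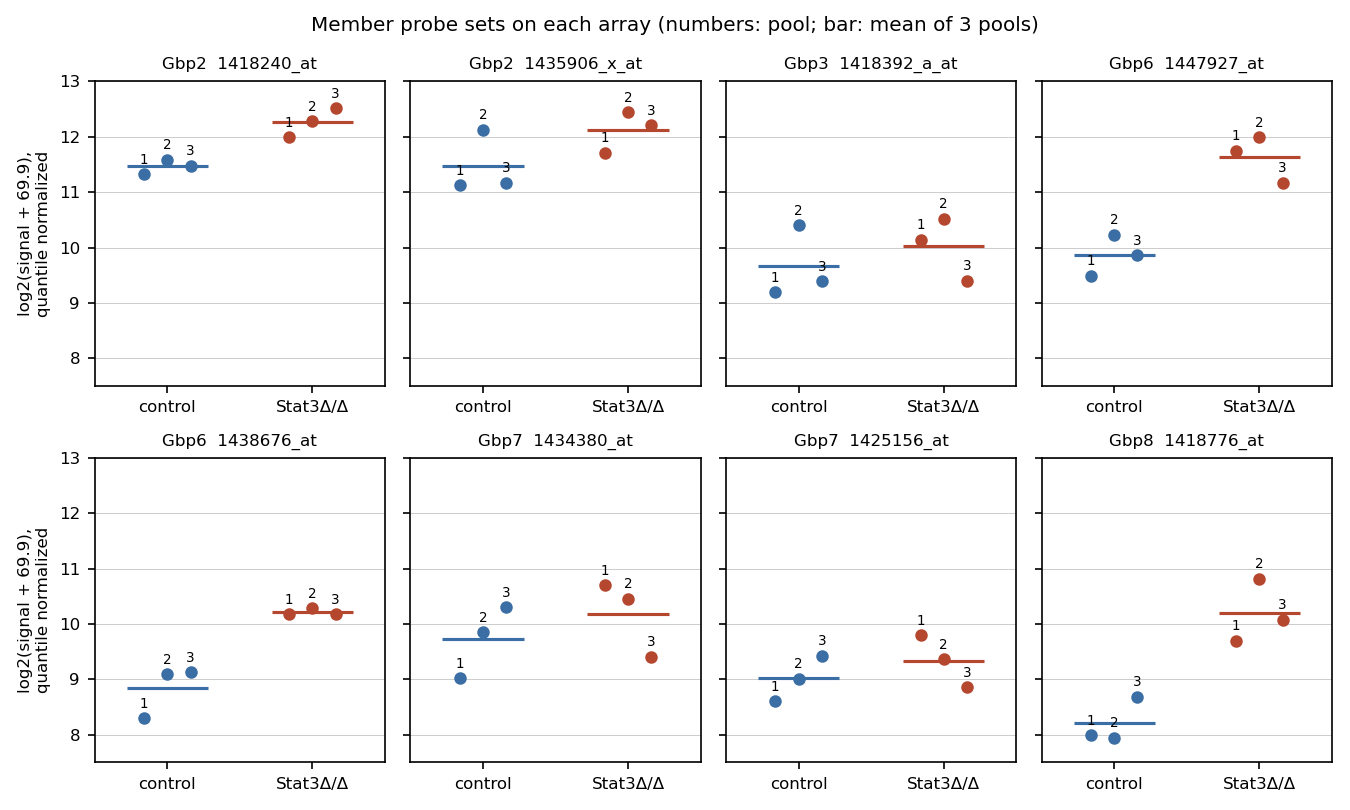
Level of the 8 member probe sets on each array, as log2(signal + 69.9) after quantile normalization. Points are pools, numbered 1 to 3, and bars are means of 3 pools. Gbp8, both Gbp6 probe sets and Gbp2 1418240_at show no overlap between the groups, while those of Gbp3 and Gbp7 and Gbp2 1435906_x_at do.

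In the mouse genome the family lies in 2 clusters, on chromosomes 3 and 5 (GRCm38.p6), and the members come from both. Gbp7, Gbp3 and Gbp2 lie on chromosome 3 together with Gbp5 and Gbp2b, and Gbp8 and Gbp6 lie on chromosome 5 with Gbp9, Gbp4 and Gbp10. The 3 probe sets of the chromosome 5 genes had log2 differences of 1.37 to 1.99, and the 5 of the chromosome 3 genes had 0.32 to 0.79. Of all probe sets, 2.46% had a log2 difference of at least 1. Within the arrays that share a title number, the ranges were 1.10 to 2.01 on chromosome 5 and 0.15 to 0.94 on chromosome 3. Between the other 3 arrays they were 1.31 to 2.11 and -0.39 to 1.06. The lowest chromosome 5 value was above the highest chromosome 3 value under 15 of 15 alternatives in the processing, pools left out among them. Some of these alternatives give the same values as another or as the main fit by construction. The 2 clusters were set side by side after their values had been seen, and the difference between them was not tested.

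**Figure D2:**
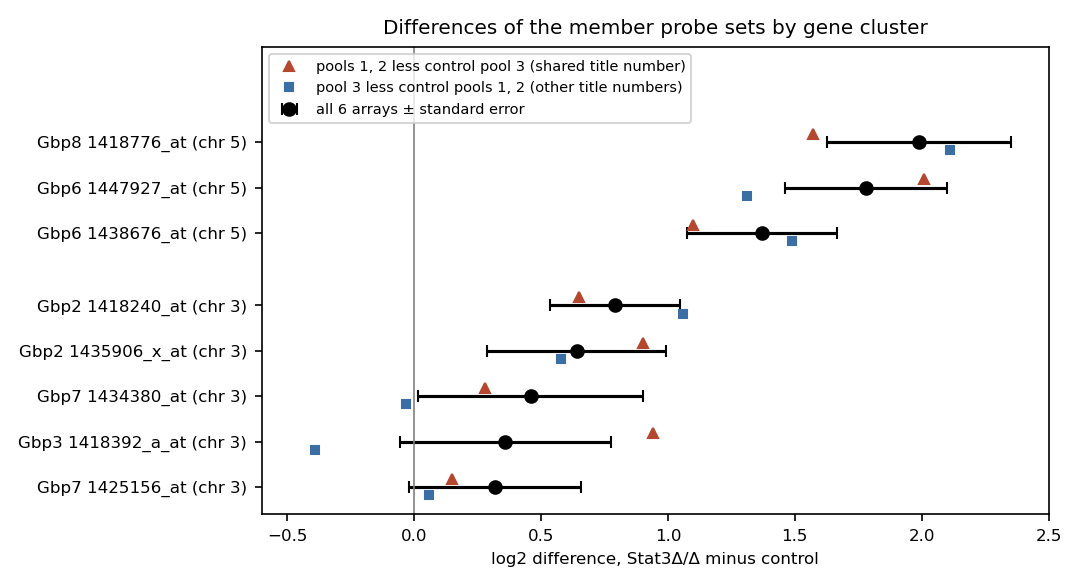
Log2 differences, Stat3Δ/Δ minus control, of the member probe sets, ordered within the clusters on chromosomes 3 and 5. Black points are differences over all 6 arrays with their standard errors, triangles are Stat3Δ/Δ pools 1 and 2 less control pool 3, and squares are Stat3Δ/Δ pool 3 less control pools 1 and 2. The chromosome 5 probe sets lie at 1.10 or more in each of the 3 readings, and those of chromosome 3 at 1.06 or less.

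Gbp8, a less studied member of the chromosome 5 cluster, had the highest log2 difference. The signal of 1418776_at was 821, 1765 and 996 in Stat3Δ/Δ pools 1 to 3 and 156, 162 and 369 in control pools 1 to 3. Its lowest Stat3Δ/Δ signal was thus 2.23 times its highest control signal. On the log2 scale the level was 10.20 ± 0.57 (SD, n = 3) against 8.21 ± 0.41 (SD, n = 3), a difference of 1.99 with a standard error of 0.36. It was 1.57 within the arrays of the shared title number and 2.11 between the other 3. Control pools 1 and 2 lie below the median signal of their arrays, and the size of this difference depends on the pseudocount, from 1.36 with the median of all signals, 336, to 2.30 with 1. A further probe set, 1421104_at, names both Gbp8 and Gbp4 and is therefore no reading of Gbp8 alone. Its signal was 24.3 to 62.6 in Stat3Δ/Δ and 39.8 to 78.1 in control pools, in both groups near the pseudocount.

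Gbp6 was read by 2 probe sets that gave similar differences. The first, 1447927_at, had signals of 3441, 4014 and 2195 in Stat3Δ/Δ pools 1 to 3 and of 562, 1132 and 912.5 in control pools 1 to 3. Every Stat3Δ/Δ pool was at least 1.94 times as high as the highest control pool. The log2 level was 11.64 ± 0.42 (SD, n = 3) against 9.86 ± 0.37 (SD, n = 3), with a difference of 1.78 and a standard error of 0.32 (2.01 within the shared title number, 1.31 outside it). The other probe set, 1438676_at, had signals of 1139, 1208 and 1075 in Stat3Δ/Δ pools and of 209, 445 and 530.2 in control pools. Here the Stat3Δ/Δ pools lay closer together than the controls, at 10.22 ± 0.061 (SD, n = 3) against 8.84 ± 0.47 (SD, n = 3), and the difference was 1.37 with a standard error of 0.30 (1.10 within the shared title number, 1.49 outside it). Gbp6 is closely related in sequence to its neighbour Gbp10, for which no probe set names it alone, and how far the probes tell such neighbours apart was not analysed here.

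Gbp2, a member with a lipid anchor that is recruited to the vacuoles of Toxoplasma, was higher on every Stat3Δ/Δ array at 1 of its 2 probe sets. The signal of 1418240_at was 4051, 4866 and 5752 in Stat3Δ/Δ pools 1 to 3 and 2425, 3044 and 2821 in control pools 1 to 3. The groups did not overlap, and the lowest Stat3Δ/Δ pool was 1.33 times the highest control pool. The log2 level was 12.26 ± 0.27 (SD, n = 3) against 11.47 ± 0.13 (SD, n = 3), a difference of 0.79 with a standard error of 0.26 (0.65 within the shared title number, 1.06 outside it). The second probe set, 1435906_x_at, had signals of 3350.4, 5483 and 4606 in Stat3Δ/Δ and of 2079.7, 4426 and 2271 in control pools. Control pool 2 lay above Stat3Δ/Δ pool 1 there, and the difference was 0.64 with a standard error of 0.35 (0.90 within the shared title number, 0.58 outside it). The suffix _x marks probe sets in which some probes also match other sequences, and what they match was not analysed here.

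Gbp3 showed overlapping groups. The signal of 1418392_a_at was 1109, 1433 and 596 in Stat3Δ/Δ pools 1 to 3 and 438, 1282 and 645 in control pools 1 to 3. Control pool 2 was thus higher than 2 of the 3 Stat3Δ/Δ pools, and Stat3Δ/Δ pool 3 lay among the lower controls. The log2 difference was 0.36 with a standard error of 0.41, with 0.94 within the arrays that share a title number and -0.39 between the other 3. With 1 pool left out in turn it ran from 0.11 to 0.73.

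Gbp7, which is known to bring parts of the NADPH oxidase and of the autophagy machinery to bacterial vacuoles, also overlapped between the groups. The signal of 1434380_at was 1649, 1365 and 598 in Stat3Δ/Δ pools 1 to 3 and 383, 832.5 and 1249 in control pools 1 to 3. The other probe set, 1425156_at, gave 875, 618 and 395 in Stat3Δ/Δ and 271, 414 and 666 in control pools. At both probe sets Stat3Δ/Δ pool 1 was the highest array and control pool 1 the lowest. The log2 differences were 0.46 with a standard error of 0.44 and 0.32 with a standard error of 0.34. They depended on single pools. Leaving out control pool 1 gave 0.11 and 0.12, and leaving out Stat3Δ/Δ pool 1 gave 0.21 and 0.09. The values were 0.85 and 0.56 when Stat3Δ/Δ pool 3 was dropped, and 0.75 and 0.53 when control pool 3 was dropped. Within the shared title number they were 0.28 and 0.15, and outside it -0.03 and 0.06.

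The stretches upstream of the chromosome 3 members show what these genes share outside the array. They are shown because all 3 hold the element through which interferon regulatory factors act. The start windows of RefSeq (GRCm38.p6) reach from 250 bases before an annotated start to 50 after it. Windows were at hand for 3 of the 5 members, Gbp2, Gbp3 and Gbp7, with 2 windows for Gbp3. None was at hand for Gbp6 and Gbp8, which were therefore not searched. Capitals mark matches to the core of the interferon-stimulated response element, GAAANNGAAA on either strand, and of the gamma-activated site, TTCNNNGAA, and each run ends before the first annotated base of the gene.
Gbp2, chr3:142620413-142620662, plus strand: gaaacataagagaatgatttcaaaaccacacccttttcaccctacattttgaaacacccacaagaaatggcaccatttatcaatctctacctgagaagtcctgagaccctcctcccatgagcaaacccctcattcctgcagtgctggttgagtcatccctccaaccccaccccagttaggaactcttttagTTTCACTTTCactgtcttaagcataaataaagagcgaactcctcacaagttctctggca
Gbp3, chr3:142559794-142560015, plus strand: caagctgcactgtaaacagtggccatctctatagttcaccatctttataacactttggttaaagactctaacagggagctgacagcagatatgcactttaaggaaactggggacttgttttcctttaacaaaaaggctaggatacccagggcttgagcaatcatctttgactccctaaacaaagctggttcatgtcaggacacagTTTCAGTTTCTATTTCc
Gbp7, chr3:142530086-142530335, plus strand: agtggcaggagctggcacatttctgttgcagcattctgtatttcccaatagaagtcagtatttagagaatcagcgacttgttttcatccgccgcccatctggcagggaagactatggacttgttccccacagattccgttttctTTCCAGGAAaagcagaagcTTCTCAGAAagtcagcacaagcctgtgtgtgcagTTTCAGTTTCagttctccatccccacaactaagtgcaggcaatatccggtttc
In all 3 the first element is written on the strand opposite to the gene. In Gbp2 it spans bases -59 to -50, counted with the annotated transcript start of its window as 0, in Gbp7 bases -53 to -44, and in Gbp3 there are 2 overlapping matches from -45 to -36 and from -39 to -30. For Gbp3 that transcript start lies downstream of the first annotated base of the gene, where the printed run stops, so its matches stand closer to the end of the run than these positions. The Gbp7 window also holds 2 gamma-activated sites, at -106 to -98 and -87 to -79, and the windows of Gbp2 and Gbp3 hold none. The second window of Gbp3 starts inside the gene and holds neither motif. The windows of the neighbours Gbp2b and Gbp5 each hold 1 response element as well. Of 32851 start windows in the table, 3.44% hold the response element, 8.30% the gamma-activated site and 0.454% both. Over the 524 genes measured here with a response element in a window the median log2 difference was -0.051, against -0.085 over the 13928 without. These are matches of letters, and binding was not measured here.

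**Figure D3:**
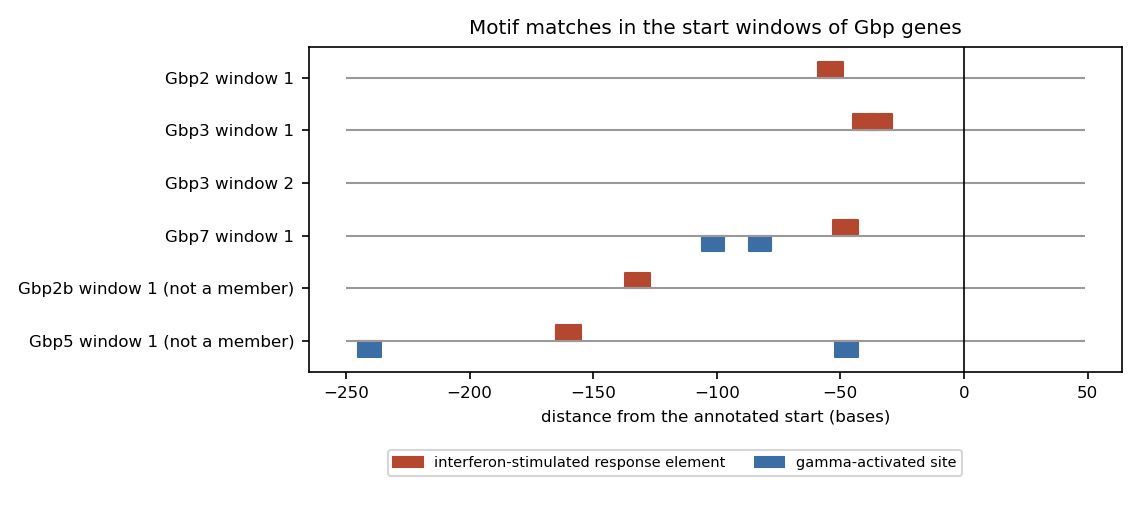
Matches to the interferon-stimulated response element (red, above the line) and the gamma-activated site (blue, below the line) in the start windows of Gbp genes, by distance in bases from the annotated transcript start of each window. Gbp2, Gbp3 (window 1) and Gbp7 each carry the response element between bases -59 and -30, where the overlapping pair of Gbp3 appears as 1 block. Gbp2b and Gbp5 carry it farther away.

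Beyond the difference between the groups, the members differed in how they varied from pool to pool. Over all 6 arrays the 28 pairs of member probe sets had a Pearson r of 0.08 to 0.97 with a median of 0.62, and all were above 0, with the difference between the groups included. With group means removed the range was -0.51 to 0.96 with a median of 0.40, and 22 of the 28 were above 0. The 2 probe sets of Gbp7 followed each other closely then (r = 0.96), as did Gbp3 with Gbp6 1447927_at (r = 0.96), although Gbp3 and Gbp6 lie on different chromosomes. Within Gbp6 r was 0.62 and within Gbp2 0.66. Gbp2 1418240_at ran against both probe sets of Gbp7 (r = -0.39 and -0.51): in Stat3Δ/Δ pool 3 the former was 0.26 above its group mean, and the latter were 0.78 and 0.48 below theirs. Gbp8 was not close to any of the others (r = 0.09 to 0.39). These are descriptions over 6 arrays that share their scaling, with 4 degrees of freedom once group means are removed, and they carry no test.

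**Figure D4:**
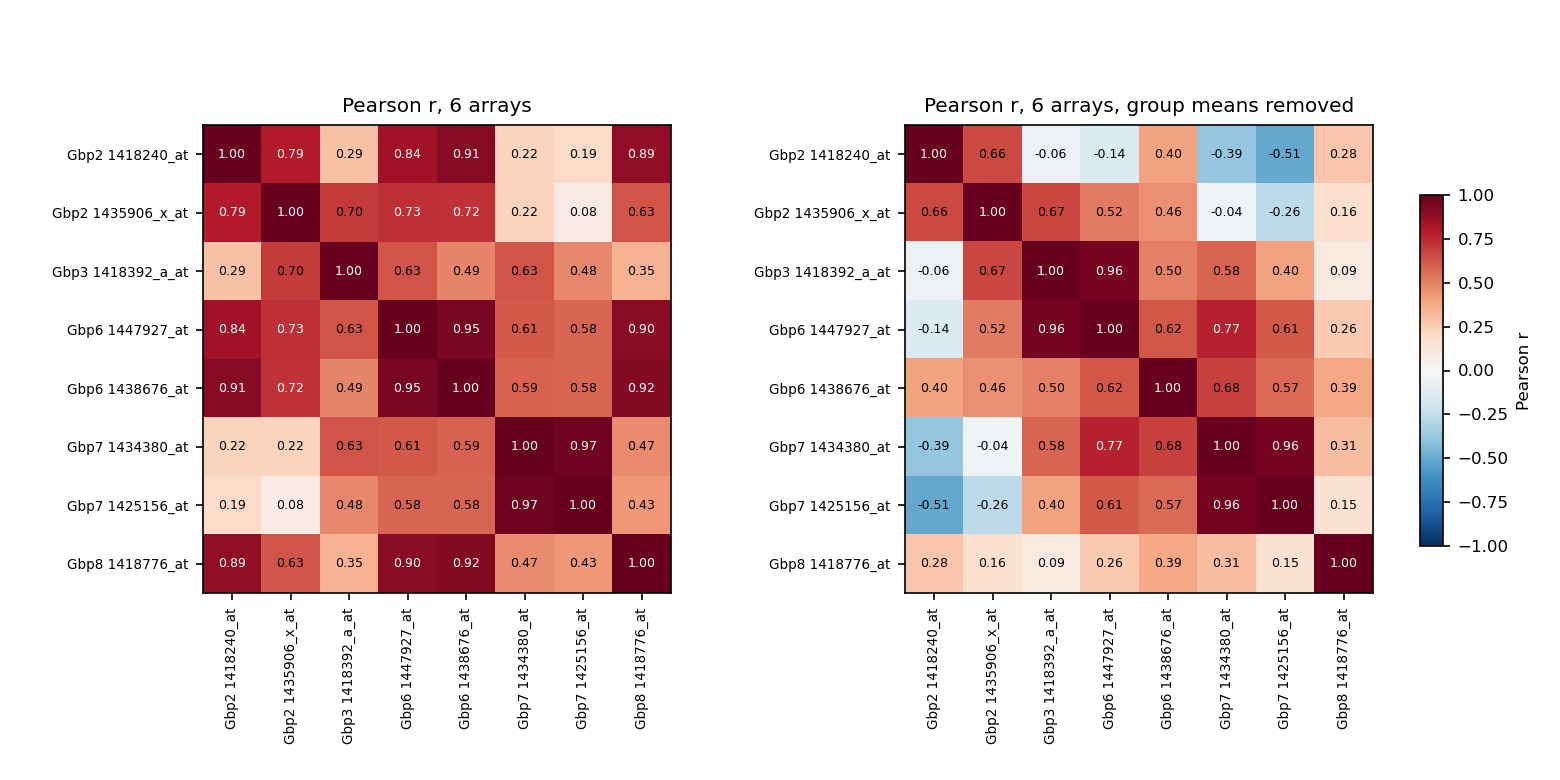
Pearson r between the log2 levels of the 8 member probe sets over 6 arrays (left) and of their deviations from the group means (right), with r printed in each cell. On the right the Gbp7 pair and Gbp3 with Gbp6 1447927_at stand at 0.96, and Gbp2 1418240_at with Gbp7 1425156_at at -0.51.

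The other genes of the family were hardly measured. One probe set, 1420549_at, names Gbp2b alone, and its signals were 45.7, 63.7 and 131 in Stat3Δ/Δ pools 1 to 3 and 27.7, 39.5 and 58.7 in control pools 1 to 3, so 5 of the 6 values lie below the pseudocount. Its log2 difference was 0.32 (limma standard error 0.29, adjusted p = 0.796), with -0.08 within the shared title number and 0.87 outside it. For Gbp5, Gbp9, Gbp10 and the pseudogene Gbp11 no probe set is named here, and Gbp4 is named only together with Gbp8.

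The immunity-related GTPases, which work beside GBPs on the vacuoles of parasites, were the pathway list with a called gene. Of 8 measured, 1 passed the thresholds with the FDR over genes in limma, against 0.011% of all genes higher and 0.0% lower, and 7 lay above 0, as did 40.7% of all genes. The median was 0.59, with 0.38 within the shared title number and 0.65 outside it. The called gene was Iigp1 (2.97 on the log2 scale, limma standard error 0.29 and adjusted p = 0.052), whose call holds without Stat3Δ/Δ pool 3 and is lost without any other single array. Its signals were 12005, 12780 and 8149 in Stat3Δ/Δ and 1021, 1474 and 1573 in control pools. Irgq was the lowest at -0.46. Igtp, a regulator of the family that guards host membranes, had a log2 difference of 1.56 (standard error 0.34, adjusted p = 0.447 from limma), close to the values of Gbp6 and Gbp8, and Irgm1, another such regulator, had 0.17.

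None of the genes that carry the interferon signal to the GBPs passed the FDR in limma. Among 9 measured interferon genes the median log2 difference was 0.16, and 7 lay above 0. It was 0.39 within the shared title number, 0.051 outside it and -0.037 without control pool 3. Ifna1 was lowest at -0.38, Ifna2 had 0.032 and Ifng was highest at 0.40. Ifng, the main inducer of GBPs, had a level of 7.92 ± 0.39 (SD, n = 3) in Stat3Δ/Δ and 7.52 ± 1.13 (SD, n = 3) in control cells. Among 9 receptors and Janus kinases the median was 0.12, which turned to -0.063 within the shared title number and -0.015 without control pool 1. Single genes ran from -0.75 for Ifnlr1, a receptor subunit for type III interferons, to 0.46 for Jak1, the kinase shared by the receptors. By p and fold, without FDR, 1 of them was lower and none higher, where 5.55% of all genes were lower and 2.15% higher. The median of all 18193 genes was -0.085.

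The 9 transcription factors measured were spread to both sides of 0, with a median of 0.57. This median was 0.20 within the shared title number, 0.79 outside it and 0.145 with the probe sets of a gene averaged. Nlrc5, an activator of MHC class I genes, was highest with a log2 difference of 1.20 (standard error 0.27, adjusted p = 0.447 from limma). Irf1, which binds the response element and is itself induced by interferon-gamma, was lowest at -0.99 (standard error 0.24, adjusted p = 0.449 from limma), with every Stat3Δ/Δ array below every control array, as held for 10.2% of all genes. For this factor the 3 Stat3Δ/Δ pools were thus on the side opposite to the members. Nlrc5, Irf7 and Stat2, 3 of the 9 factors, were higher on every Stat3Δ/Δ array than on every control array. The same held for 5.99% of all probe sets. Irf8 had 0.80, with -0.11 within the shared title number and 1.49 outside it. Irf7 had 0.66, Stat2 0.57 and Irf9 0.57, the last 2 being subunits of the complex that answers type I interferon, and the second probe set of Stat2 gave -0.28. Irf2 had -0.24, Ciita -0.12 and Batf2 -0.068. Of 12 inhibitors of the pathway 9 lay below 0, with a median of -0.14 that turned to 0.025 outside the shared title number. Socs3, an inhibitor known to be induced by STAT3, was lowest at -0.78 (standard error 0.33, adjusted p = 0.632 from limma), Socs1, the main brake on interferon-gamma receptors, had -0.50, and Pias2 was highest at 0.49.

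Other targets of interferon were spread to both sides of 0. Of 23 targets of interferon-gamma none was called in limma, 15 lay above 0 and the median was 0.17 (0.31 within the shared title number, 0.20 outside it, 0.037 without control pool 3 and 0.020 with arrays centred on their medians). Single genes ran from -1.15 for Serping1, a complement inhibitor, to 0.81 for B2m, the light chain of MHC class I. The chemokine Cxcl9 had -0.34 and Cxcl10 0.38, and the invariant chain Cd74 0.022. Of 27 targets of type I interferon none was called, 21 lay above 0 and the median was 0.30 (0.40 within the shared title number, 0.35 outside it). They ran from -0.43 for Rsad2, an antiviral enzyme, to 1.17 for Bst2, which tethers virus particles, while Ifi35 had -0.41. Without the FDR, 2 of the first list were higher and 1 lower, and 4 of the second were higher and none lower, against 2.15% of all genes higher and 5.55% lower.

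Genes that act with GBPs were listed by step. All 5 genes listed for prenyl transfer and processing, a route that gives Gbp2 its lipid anchor, lay below 0 with a median of -0.14. They ran from -0.56 for Icmt to -0.080 for Fnta, and none was called. Of all genes 40.7% lay above 0, and their median was -0.085. The median of the 5 turned to 0.11 within the arrays that share a title number and to 0.013 without control pool 1. The 11 genes of the autophagy conjugation system, which directs GBPs to vacuoles, had a median of 0.090, with Atg3, its conjugating enzyme, at 0.70, Map1lc3a, one of the LC3 proteins, at -0.48 and Gabarap, another such conjugate, at -0.16, and none was called. That median turned to -0.083 without Stat3Δ/Δ pool 1 and to -0.116 with arrays centred on their medians. Of 11 inflammasome genes downstream of GBPs 10 lay above 0, none was called and the median was 0.36. It was 0.39 within the shared title number, 0.051 outside it and 0.096 without Stat3Δ/Δ pool 2. Il1b, the cytokine matured by caspase 1, was highest at 1.05 (adjusted p = 0.532 from limma), with signals of 13373 to 25566 in Stat3Δ/Δ and 8904 to 10528 in control pools, and its difference was 1.46 within the shared title number and 0.37 outside it. Casp4, the caspase that senses cytosolic lipopolysaccharide, had 0.60 (1.07 within the shared title number, -0.04 outside it), and Nlrp3, a sensor, -0.051.

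**Figure D5:**
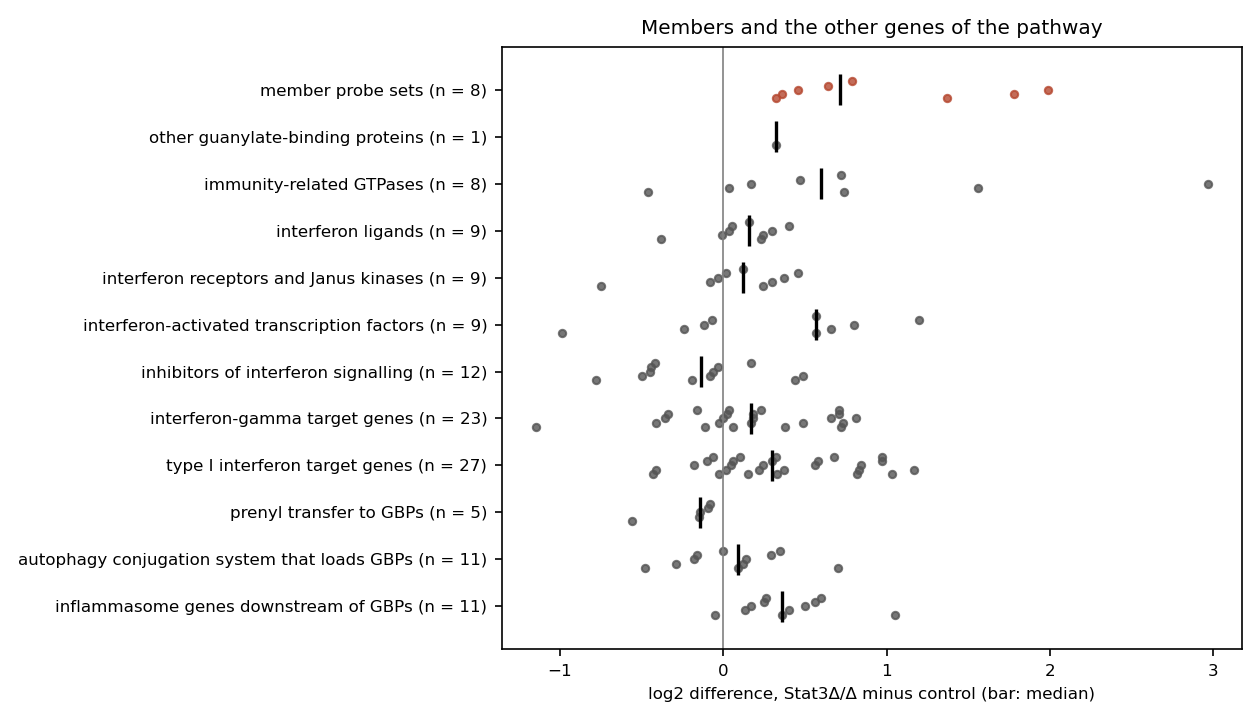
Log2 differences, Stat3Δ/Δ minus control, of the member probe sets (red) and of the genes of 11 pathway lists (grey), each gene by its brightest probe set. Bars are medians. The members range from 0.32 to 1.99 with a median of 0.72. Of the lists, that of the immunity-related GTPases reaches beyond them, to 2.97, and its median is 0.59.

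Other genes were ranked by how closely their levels over the 6 arrays followed the mean profile of the members. Among 9092 genes of above-median brightness the highest r was that of Evi2a (0.996), followed by Csf2rb2 (0.994), Samsn1 (0.991), Csf2rb (0.987), Grb2, Osbpl1a, Agfg1 and Peli1 (0.978). Csf2rb and Csf2rb2 are receptor subunits of GM-CSF and related cytokines on myeloid cells, and their log2 differences were 0.88 and 0.69. The profile holds the group difference on which the members were picked. Genes that rank high are therefore bound to be higher in Stat3Δ/Δ cells as well, and nothing is read from their differences. The cell source of the ranked genes was not tested. Of the genes compared, 1.06% had an r above 0.9 with the members. With group means removed the closest were Rpgr (0.999), Eif2a, Marcks, AI662270, Ncoa4, Ctss, Pitpna and Dr1 (0.980), none of which is in the first set. Ctss, a protease of antigen-presenting cells, was 0.70 higher in Stat3Δ/Δ cells.

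Markers of cells other than type II cells were read by list, and no marker gene was called in limma. All 11 macrophage markers lay above 0, with a median of 0.47, and none was at or below the pseudocount on every array. Their summed signal was 140783 to 199959 in Stat3Δ/Δ and 121452 to 129827 in control pools. Marco had signals of 3382 to 4979 in Stat3Δ/Δ and 2147 to 2773 in control pools, and Cd68 7544 to 13536 and 4200 to 7330. Their log2 differences, 0.75 and 0.81, were the highest of this list. Itgax (0.47), Csf1r (0.31), Adgre1 (0.24), Msr1 (0.11), Fcgr1 (0.10) and Siglecf (0.045) overlapped between the groups. The other 5 of the 11, Marco, Cd68, Mrc1 (0.62), Chil3 (0.54) and Cd14 (0.51), were higher on every Stat3Δ/Δ array than on every control array. This held for 5.99% of all probe sets. All 7 markers of dendritic cells were above 0, the median being 0.62 and the summed signals 13069 to 19044 and 5411 to 11242. For 6 neutrophil markers, 4 of them above 0, the median was 0.55 and the sums were 28367 to 32849 and 17643 to 22605. All 5 B cell markers lay above 0 with a median of 0.39, and the sums overlapped (5130.1 to 7050 and 4183 to 5890). T and NK cell markers, from cells that make Ifng, overlapped as well, at 17650 to 26232 and 6533 to 37130.3, with 7 of 13 above 0 and a median of 0.32 that turned to -0.16 within the shared title number. Control pool 2 held the highest of these T and NK sums, while the signal of Ifng was 130.7 there and 320.2 in control pool 3. Control pool 2 was the highest control for Gbp2, Gbp3 and Gbp6 1447927_at, and control pool 3 was the highest for Gbp7, Gbp8 and Gbp6 1438676_at. Whether these levels are linked was not tested. Endothelial markers, with 2 of 9 above 0, had a median of -0.305 and overlapping sums (14467 to 19161 and 18517 to 23380). Fibroblast markers, with 1 of 7 above 0, had -1.72, and ciliated cell markers, with 2 of 7, had -0.785. Within the shared title number the endothelial, fibroblast and ciliated medians were -0.0043, -0.52 and -0.795, and outside it -0.167, -1.92 and -0.606. For macrophage, dendritic, neutrophil and B cell markers they were 0.34, 0.49, 0.65 and 0.21 within it and 0.375, 0.91, 0.88 and 0.58 outside. The 9 type II cell markers had a median of -0.046 with 3 above 0 (-0.125 within the shared title number, 0.071 outside it). The part of other cells in the levels of Gbp2, Gbp3, Gbp6, Gbp7 and Gbp8 was not tested.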

How the data were processed

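The authors deposited linear signal intensities of the 6 arrays, made with Microarray Suite (MAS 5 in the submitters' processing notes). Each array has a trimmed mean of 1500 (2% trimmed), checked on the values. RMA values were not used here. Pools were grouped by their titles, and 64 of 45101 probe sets, the controls, were left out. Signals plus 69.9, their 20th percentile, were put on the log2 scale and quantile normalized. A group term was fitted by limma 3.58.1 (R 4.3.3) over 45037 probe sets. P-values were adjusted after Benjamini-Hochberg over probe sets, or over 18193 genes each read by its brightest probe set. Calls needed an adjusted p within an FDR of 10%, p up to 0.05 and 1.5-fold. Array medians were 282.8 to 381.3, and precision is limited by the number of arrays. The platform annotation gives 34945 probe sets 1 gene, 932 several and 9160 none. The members and lists were chosen with earlier results of these data known. All member probe sets were to be named, with every called gene of a list or else its highest, lowest and brightest gene, all transcription factors, and the 8 genes of highest Pearson r to the members. Igtp, Irgq, Irgm1, Socs1, Cxcl9, Cxcl10, Cd74, Casp4 and the macrophage markers were added to these names once values were known. The fit was tested on simulated data. Alternatives changed the pseudocount, normalization, filter, test, blocks and arrays, and the comparison outside the shared title number was added after seeing the data. Tables and plots used Python 3.11.15, pandas 2.3.3, numpy 2.4.6 and matplotlib 3.10.9. Deviations of same-numbered pools correlated at -0.084, -0.0088 and -0.24, so the numbers were not taken to pair the samples.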

Additional observations from a re-analysis of the deposited data

How the results depend on the processing

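The 8 member probe sets were recomputed under 15 alternatives each. Of these 120 values 118 lay above 0, the exceptions being Gbp3 (-0.39) and Gbp7 1434380_at (-0.03) between the arrays outside the shared title number. Not all of the 120 are separate readings. The filter on dim probe sets and the replicate block leave these differences unchanged. The title number block repeats the values within the shared number. The members were picked from this contrast, and nothing is read from the count. The median over the members ran from 0.60 to 0.91 with 1 pool left out and was 0.72 with the replicate block. With 1 pool left out 4 to 6 members separated the groups, a count that dropping a pool can only keep or raise. With the pseudocount at the median of all signals Gbp6 1438676_at had 0.99 and Gbp8 1.36. The single probe set called over the whole table became 11 with that pseudocount, 2 with arrays centred on their medians and 2 without dim probe sets, and it became 0 with a pseudocount of 1, with either the title number or the replicate number as a block (the replicate block) and in the methods' t-test. With 1 pool left out it was 0 to 1. Centring arrays on their medians also moved the median of all probe sets from -0.017 to -0.096, and the member median was then 0.59. The count without FDR, 3767, fell to 1822 with the larger pseudocount and was 2216 in the t-test. The 1 call among immunity-related GTPases became 0 with the pseudocount of 1, under both blocks and in the t-test, and 0 to 1 with 1 pool left out. Pool numbers are shared by the groups but do not pair the samples, and the replicate block changed no other count of called genes in the lists. The causes of these changes were not tested. The filter on dim probe sets left no value for Gbp2b, whose signals near the pseudocount limit what can be measured.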
